A study of Rattus norvegicus with 4 samples.

Results

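The genes described here are the immune cell, chemokine and major histocompatibility complex (MHC) genes on an expression array of rat vestibular ganglion neurons. They were chosen by symbol alone: chemokines (Ccl, Cxcl) and their receptors (Ccr, Cxcr), interleukins and their receptors (Il), CD antigens (Cd), C1q chains, rat MHC genes (RT1), Fc receptors, Toll-like receptors, lysozymes, and Ptprc, Csf1r, Tyrobp and Aif1. The symbols took in 219 of the 35126 probes, which stand for 178 of the 12111 genes named on the array. Values could be assigned to 193 of these probes and to 159 genes. The other 19 genes, among them Aif1, Cd3e and Cd2, had probes only in a stretch of the array where names could not be placed, and were not analysed here. Choice by symbol also brings in genes of other functions, such as C1qbp, a mitochondrial protein, and Cd2bp2 and Cd2ap, intracellular proteins that bind CD2.

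Neurons were taken from immunostained rat vestibular ganglia by laser capture microdissection, in which single cells are cut from a section, and captured cells were pooled. The calretinin-positive group (2 arrays) stands for afferents that end as calyces on vestibular hair cells. The calretinin-negative group (2 arrays) stands for afferents with dimorphic or bouton endings, per the series' design text. Total RNA of every pool was labelled with Cy5 and hybridised alone. No treatment, strain, age or sex is given for either group, and nothing says whether the 2 arrays of a group came from separate animals or separate pools, so p-values measure the spread between these arrays, which may be technical. The written descriptions call all 4 samples positive, so groups were taken from the titles. Calb2, which encodes calretinin, measured 309 ± 26 in the arrays titled positive and 134 ± 6.67 in those titled negative (intensity, SD, n = 2 each; limma, adjusted p = 1.79e-06).

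Macrophages live in peripheral ganglia beside neurons and satellite glia. They depend on the receptor Csf1r, signal through the adaptor Tyrobp, and are a main source of C1q, the protein that starts the classical complement cascade. Chemokines guide leukocytes through receptors on their surface, and MHC class I and class II molecules show peptides to T cells. Many CD antigens, in contrast, are found on neurons, glia and vessels as well as on blood cells.

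Intensities are on the authors' deposited linear scale, on which the array medians were all near 0.99. A probe was tested if its mean log2 value over the arrays reached the 40th percentile of all probes. This limit corresponds to an intensity of 0.456. Where 1 group lies under this limit, its values are printed and no fold is given. Within a group the arrays correlated at r = 0.99 (positive) and r = 0.994 (negative) over the tested probes' log2 values, and between groups at 0.925 to 0.928. Their small number limits the precision. In RNA from pools of captured cells, fewer cells of a type and less RNA per cell cannot be told apart, and this holds for every difference below.

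Of the 159 genes read, 78 (49.1%) passed the limit and were tested, against 74.6% of the 10872 other named genes. The adjusted p (limma, Benjamini-Hochberg over 21070 probes) was under 0.05 for 50 of the 78: 21 were higher in the positive arrays and 29 lower, and 28 did not pass. The array as a whole differed widely between the groups. Of all tested probes 64.2% were called, 40.6% higher and 23.6% lower. Of all tested named genes 66.7% were called, 45.3% higher and 21.4% lower. These shares are the background for the counts of every role group and list below. Among the immune genes 26.9% were higher and 37.2% lower, so the share called was near the background while its direction leaned the other way. The median log2 change (positive minus negative) was -0.16 over the 78 genes, 0.17 over all named genes and 0.11 over all tested probes. Quantile and cyclic loess normalization moved the last value to 0.01 and -0.01, and the split of the immune genes to 16 higher and 34 lower, and to 14 higher and 36 lower. The split of all called probes moved from 63.3% higher to 53.5% and 49.6%.

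At least 2-fold differences with no overlap between the groups' arrays were found for 6 higher genes (7.69% of the tested members, with 7.28% of all named genes) and 14 lower genes (17.9%, with 5.95% of all named genes). The higher genes were Cxcl1, Il13ra2, Ccr10, Il15, Ccl19 and Cxcl16. The lower genes were Il33, Ccl6, Cxcr4, Tlr8, C1qa, Il10ra, C1qc, C1qb, Il16, Cd93, Csf1r, Il4r, Cd9 and Tyrobp. Nearest to the 2-fold line were Tyrobp (-1.01) and Cxcl16 (1.04) inside it, and Cd2bp2 (0.98) and Cd83 (-0.92) outside it, among genes with both groups over the dim limit. Among all tested probes 15.3% met this rule, 8.28% on the higher and 7.07% on the lower side. Of the higher genes, Ccr10 and Cxcl16 rest on how names of the late part of the array are placed, as set out at the end. Without probes whose 2 readings differ, 4 immune genes were higher and 14 lower by this rule. With names 5 table rows later, 5 were higher and 15 lower.

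**Figure D1:**
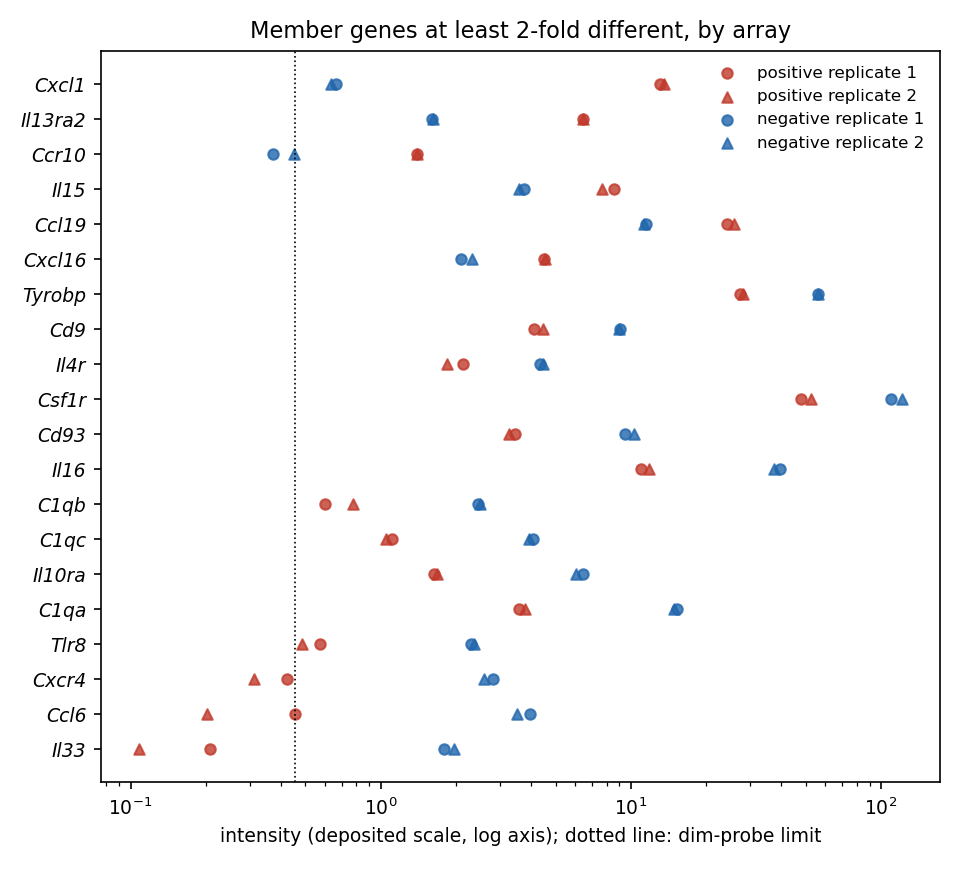
Intensity of each of the 20 genes with a 2-fold or larger difference, 1 row per gene and 1 point per array (log axis, deposited scale; red, positive arrays; blue, negative arrays; dotted line, the limit of 0.456 for dim probes). The 6 genes at the top were higher in both positive arrays and the 14 below them lower, and replicate arrays lie close together beside the distance between the groups, least so for the dim positive values of Ccl6 and Il33.

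The 3 chains of C1q were lower in the positive arrays, by 3.59- to 4.12-fold. C1qa had an intensity of 3.57 and 3.76 in the positive arrays and 15.3 and 14.9 in the negative arrays, a 4.12-fold difference (log2 change -2.04, SE 0.068, adjusted p = 2.31e-08). C1qb read 0.601 and 0.773 against 2.44 and 2.49, or 3.59-fold (-1.85, SE 0.14, adjusted p = 2.99e-06). C1qc read 1.11 and 1.05 against 4.07 and 3.92, or 3.70-fold (-1.89, SE 0.088, adjusted p = 1.60e-07). The groups did not overlap for any chain. C1qb, C1qc and C1qa stand next to each other, in this order, in the rat RefSeq annotation. C1qbp, taken in by its letters only, read 276 and 320 against 241 and 229 (0.34, adjusted p = 0.00768), a call lost under quantile normalization (0.10, adjusted p = 0.243) and cyclic loess normalization (0.04, adjusted p = 0.723), and without positive replicate 2 (0.23, adjusted p = 0.0569).

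The 200 bases before the start site are shown for C1qa and C1qb, from RefSeq on build GRCr8, where 126 of the 159 genes have an entry. These genes were picked after their changes were seen, and the stretch before C1qc was not examined. Whether the chains share a regulator was not tested. Capitals mark the letters GGAAGT, a core bound by ETS factors such as the myeloid regulator PU.1, or its reverse complement ACTTCC; both strands were searched. The C1qa stretch lies at chr5:154419934-154420133 and the C1qb stretch at chr5:154407828-154408027, both on the minus strand.
C1qa: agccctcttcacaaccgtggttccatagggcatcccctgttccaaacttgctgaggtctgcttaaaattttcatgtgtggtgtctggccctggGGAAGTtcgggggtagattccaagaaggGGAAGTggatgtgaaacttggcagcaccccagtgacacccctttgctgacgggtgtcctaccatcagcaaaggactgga
C1qb: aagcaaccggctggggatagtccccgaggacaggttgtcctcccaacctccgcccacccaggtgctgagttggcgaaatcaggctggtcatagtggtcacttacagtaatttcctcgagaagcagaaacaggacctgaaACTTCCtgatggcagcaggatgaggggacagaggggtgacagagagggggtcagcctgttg
C1qa held 2 matches, 107 to 102 and 79 to 74 bases before the start, and C1qb held 1 on the opposite strand, 61 to 56 bases before it. At least 1 match stood in 16.7% of the 27457 rat promoter stretches of this length. A match describes letters and not a bound site.

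Csf1r, the receptor for the macrophage growth factors Csf1 and Il34, was also lower in the positive arrays. It read 48.0 and 52.5 in the positive and 109 and 121 in the negative arrays, a 2.29-fold difference (-1.20, SE 0.080, adjusted p = 1.37e-06); its second probe was under the limit on every array. Tyrobp, the adaptor of activating receptors on macrophages and natural killer cells, read 27.4 and 28.1 against 56.0 and 55.9, or 2.02-fold (-1.01, SE 0.065, adjusted p = 1.03e-06). For both genes each negative array lay above each positive array. Ptprc (CD45), the phosphatase on all nucleated blood cells, was near 0 with both probes: the brighter read 0.0923 and -0.0122 against 0.196 and 0.230. Lyz2, the lysozyme of macrophages and granulocytes, was under the limit in both groups, at 0.303 and 0.433 against 0.173 and 0.188. The defining genes thus lay on both sides of the limit, with Csf1r and Tyrobp measured well above it and Ptprc and Lyz2 below it.

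Chemokine ligands moved in both directions. Of 26 read, 13 were tested, 3 were higher, 5 lower and 5 did not pass; 10 ligands, among them Ccl3, Ccl5 and Cxcl10, were under the limit on every array. Cxcl1, a neutrophil-attracting chemokine induced in many cell types by inflammation, read 13.0 and 13.5 in the positive arrays against 0.666 and 0.632 in the negative arrays. The 20.5-fold difference (4.35, SE 0.078, adjusted p = 8.52e-10) was by far the widest positive one among the tested members. Ccl19, a ligand of Ccr7 that draws dendritic cells and T cells, read 24.2 and 25.8 against 11.5 and 11.3, or 2.20-fold (1.14, adjusted p = 6.33e-07). Ccr7 itself was under the limit on every array. Cxcl16, a membrane-bound ligand of Cxcr6 and a scavenger receptor, read 4.50 and 4.54 against 2.09 and 2.31, or 2.06-fold (1.04, adjusted p = 3.72e-06). With its name 5 table rows later the change was 0.29 (adjusted p = 0.0160).

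Ccl6, a chemokine of rodent myeloid cells, went the other way. Its brighter probe read 3.96 and 3.52 in the negative arrays and was at or under the limit in the positive arrays, at 0.455 and 0.203 (adjusted p = 5.79e-06). The call was lost with each probe tested on its own spread (adjusted p = 0.0631). A second Ccl6 probe, an early one read in place, was under the limit on every array, at 0.135 and 0.0929 against 0.206 and 0.0976. Cxcl12, a chemokine of stromal and endothelial cells and of Schwann cells, read 16.0 and 15.9 against 19.7 and 22.3 (-0.39, adjusted p = 0.00132), a call also lost on its own spread (adjusted p = 0.0934). Cxcl14 (-0.42), Cxcl9 (-0.48) and Ccl7 (-0.55) were lower by similar amounts. Ccl2, the main monocyte attractant, read 0.608 and 0.502 against 0.657 and 0.602, and the groups did not differ by the test (-0.19, adjusted p = 0.482).

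The same promoter stretch is shown for Cxcl1, the gene with the widest positive difference and a known target of NF-kB, at chr14:17479322-17479521 on the minus strand of GRCr8. Capitals mark an NF-kB motif, searched on both strands.
Cxcl1: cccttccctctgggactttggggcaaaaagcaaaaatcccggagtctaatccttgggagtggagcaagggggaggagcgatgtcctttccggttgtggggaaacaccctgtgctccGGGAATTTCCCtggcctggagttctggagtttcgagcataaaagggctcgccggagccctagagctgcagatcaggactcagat
The capitals hold a match on each strand that overlap, 84 to 75 and 83 to 74 bases before the start. An NF-kB match of this form stood in 5.30% of the rat promoter stretches, and again it describes letters and not binding. Genes of the NF-kB pathway are given further on.

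Chemokine receptors were mostly dim. Of 11 read, 7 were under the limit on every array, and of the 4 tested 1 was higher, 2 were lower and 1 did not pass. Cxcr4, the receptor of Cxcl12, read 2.82 and 2.58 in the negative arrays and was under the limit in the positive arrays, at 0.421 and 0.312 (adjusted p = 6.48e-07). Ligand and receptor were thus both lower in the positive arrays. Cxcr3, the receptor of Cxcl9 on activated T cells, was lower by 0.56 (0.649 and 0.711 against 0.969 and 1.04, adjusted p = 0.0118). Ccr10 read 1.40 and 1.40 in the positive arrays and was under the limit in the negative arrays, at 0.370 and 0.452 (adjusted p = 2.04e-05). Ccr9, a homing receptor of gut lymphocytes and thymocytes, read 14.0 and 15.0 against 16.2 and 14.8, with overlapping arrays (-0.09, adjusted p = 0.306); the normalizations moved it to -0.28, with an adjusted p of 0.00878 (quantile) and 0.00744 (cyclic loess).

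Interleukins gave 2 higher, 2 lower and 3 not passed among 7 tested of 20 read. Il15, which sustains natural killer and memory T cells, read 8.54 and 7.67 against 3.74 and 3.57 (1.15, adjusted p = 1.45e-06). Il18, activated by the inflammasome, read 4.62 and 4.62 against 2.86 and 3.04 (0.65, adjusted p = 4.49e-05). Il16, which attracts CD4-bearing cells, was lower, at 11.0 and 11.9 against 39.3 and 37.5, or 3.36-fold (-1.75, adjusted p = 6.87e-08). A second, dimmer Il16 probe was lower by much less (-0.29, adjusted p = 0.0493). Il33, an alarmin held in the nucleus of glia, stromal and endothelial cells, read 1.80 and 1.97 in the negative arrays and was under the limit in the positive arrays, at 0.207 and 0.108 (adjusted p = 7.12e-06). A second Il33 probe was under the limit on every array, at -0.0374 and 0.1282 against 0.3924 and 0.2565.

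Il34, the ligand of Csf1r that neurons make, did not pass the test. It read 76.7 and 82.0 against 81.6 and 78.9, so that each group spanned part of the other's range (-0.02, SE 0.071, adjusted p = 0.850). Under quantile and cyclic loess normalization its change was -0.27 in both cases, with an adjusted p of 0.00532 and 0.00555. Il1b, the inflammatory cytokine of macrophages, was not tested; it was above the limit in the positive arrays alone, at 0.504 and 0.640 against 0.194 and 0.143. The T cell cytokines Il2, Il4 and Il13 were near 0 on all 4 arrays.

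Interleukin receptors and other Il-named genes gave 2 higher, 3 lower and 4 not passed among 9 tested of 21 read. Il13ra2, a decoy receptor for Il13, read 6.41 and 6.43 in the positive arrays and 1.61 and 1.61 in the negative arrays, a 3.98-fold difference (1.99, SE 0.073, adjusted p = 4.06e-08). The Il10 receptor chains went in opposite directions. Il10ra, the chain found mainly on blood cells, read 1.63 and 1.67 against 6.43 and 6.04, or 3.77-fold lower (-1.92, adjusted p = 6.74e-08), while a dimmer second probe did not pass (-0.10, adjusted p = 0.701). Il10rb, the chain shared with other receptors and found in most tissues, read 16.6 and 15.9 against 11.6 and 11.0 (0.52, adjusted p = 0.000103). Il4r, the receptor of Il4, read 2.14 and 1.84 against 4.33 and 4.45, or 2.21-fold lower (-1.15, adjusted p = 4.13e-06).

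Il6st (gp130), the signalling chain of the Il6 family, was the 1 gene of the 9 with several tested probes whose probes were called in opposite directions. Its brighter probe read 21.3 and 23.1 against 26.0 and 27.0 (-0.26, adjusted p = 0.0100), and its other tested probe 6.82 and 6.39 against 4.05 and 4.04 (0.71, adjusted p = 1.85e-05). The first call was lost without positive replicate 1 (adjusted p = 0.0710) or negative replicate 2 (adjusted p = 0.0526). No direction is given for this gene.

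**Figure D2:**
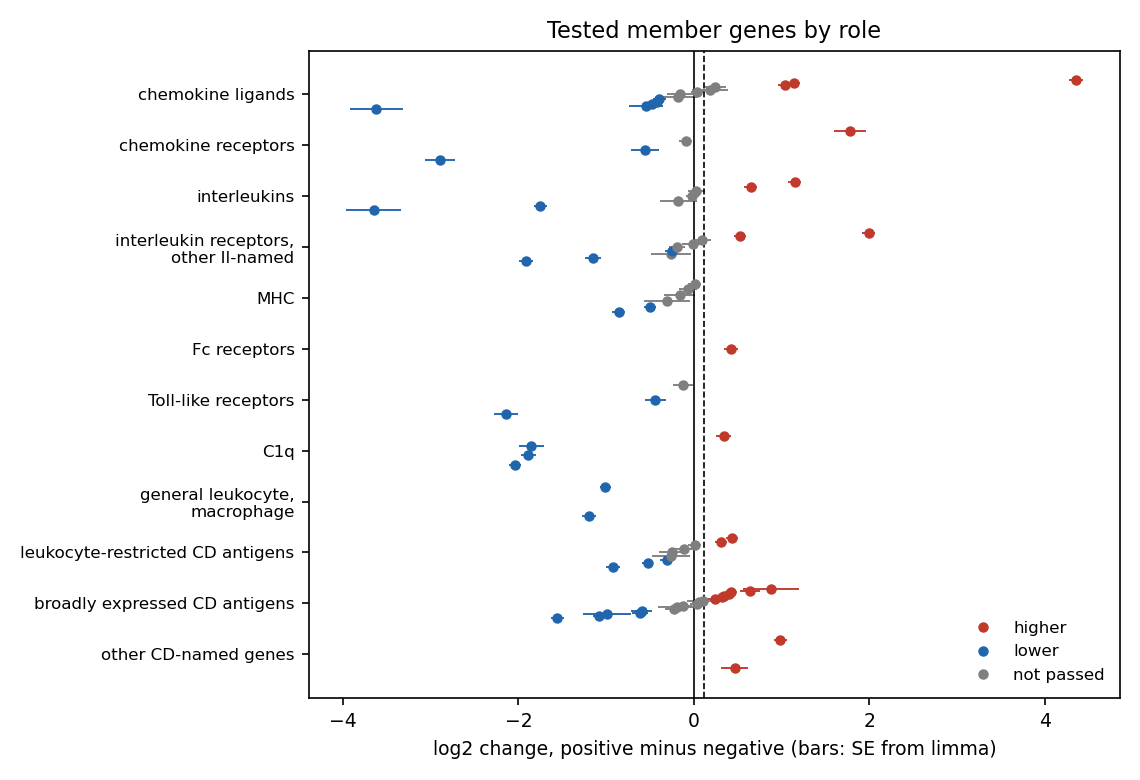
Log2 change (positive minus negative) of the 78 tested immune genes, grouped by role, 1 point per gene with its SE from limma (red, higher; blue, lower; grey, adjusted p of 0.05 or more; solid line, 0; dashed line, the median of all tested probes, 0.11). Cytokine and chemokine genes spread to both sides, from -3.65 (Il33) to 4.35 (Cxcl1), while the C1q chains and, with late names placed by array position, the called MHC and Toll-like receptor genes lie on the lower side; for genes with a group under the dim limit the plotted change depends on how low values were set.

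Of 14 MHC genes read, 6 were tested by their brightest probe, of which 2 were lower (21.4% of all named genes were) and 4 did not pass. By these probes 0 were higher by limma, nor was any at an unadjusted p under 0.05. A second, dimmer probe of RT1-T24-4 was called higher, at 1.11 and 0.844 against 0.593 and 0.696 (0.59, adjusted p = 0.0225). The brightest RT1-T24-4 probe did not pass (-0.07, adjusted p = 0.565). The count also rests on how names of the late part of the array are placed, as set out at the end. With names 5 table rows later, RT1-Bb (1.08, adjusted p = 3.34e-05) and RT1-DOa (0.36, adjusted p = 0.00171) were called higher. RT1-DMb, a chain of the class II molecule that loads peptides, read 16.1 and 16.0 against 23.2 and 22.2 (-0.50, adjusted p = 0.000111). RT1-DMa, its partner chain, was under the limit on all 4 arrays. RT1-S3, a non-classical class I gene, read 4.36 and 4.68 against 8.53 and 7.86 (-0.86, adjusted p = 7.94e-06). RT1-Ba, a class II chain, read 7.23 and 6.99 against 6.76 and 7.39, with the positive arrays inside the range of the negative ones (0.01, adjusted p = 0.929). Class I genes of the rat are near-identical copies, so values of RT1-S3 and of the RT1-CE genes are uncertain between copies. Cd74, the invariant chain of class II molecules, read 3.89 and 4.26 against 5.34 and 4.75 (-0.31, adjusted p = 0.00999); without negative replicate 1 its adjusted p was 0.0699.

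Of the 3 Toll-like receptors tested, 2 were lower and 1 did not pass. Tlr8, a sensor of single-stranded RNA in myeloid endosomes, read 0.571 and 0.486 against 2.29 and 2.35, or 4.39-fold lower (-2.14, adjusted p = 1.01e-06). Tlr2, the receptor of bacterial lipoproteins, read 1.67 and 1.41 against 1.93 and 2.24 (-0.44, adjusted p = 0.00932), and without negative replicate 2 its adjusted p was 0.0629. Tlr3, a sensor of double-stranded RNA, read 2.60 and 2.55 against 3.20 and 2.47, with overlapping arrays (-0.13, adjusted p = 0.376); without negative replicate 2 the change was -0.31 (adjusted p = 0.0197). Tlr4 and Tlr5 were under the limit on every array.

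Fc receptors were dim except for 1. Fcgrt, the neonatal Fc receptor that recycles antibodies and albumin in many tissues, read 84.6 and 94.7 against 66.4 and 67.1 (0.42, adjusted p = 0.000856), a call lost under quantile (0.14, adjusted p = 0.109) and cyclic loess normalization (0.17, adjusted p = 0.0632). Fcgr3a, an antibody receptor of macrophages and natural killer cells, was above the limit in the negative arrays alone, at 0.852 and 0.732 against 0.171 and 0.276, and was not tested. Such untested genes numbered 8, of which 7 had the positive group under the limit and 1 (Il1b) the negative group. Among tested genes, 5 had the positive group and 2 the negative group under it. With these groups set at the limit the median change of the 78 genes stayed at -0.16. A median does not register how far out such genes lie, so this value cannot show how much the setting of low values matters.

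Leukocyte-restricted CD antigens gave 2 higher, 3 lower and 4 not passed among 9 tested of 24 read; 13 were under the limit on every array. Cd83, a marker of mature dendritic cells also found on other activated cells, read 17.3 and 18.9 against 36.6 and 32.2, or 1.90-fold lower (-0.92, adjusted p = 9.24e-06). Cd53, a tetraspanin of leukocytes, read 6.33 and 6.39 against 9.18 and 9.14 (-0.53, adjusted p = 7.59e-05). A pair of monocyte and macrophage markers went the other way. Cd14, the co-receptor for endotoxin, read 13.2 and 12.5 against 10.5 and 10.3 (0.31, adjusted p = 0.00243), a call lost under quantile (adjusted p = 0.0590) and cyclic loess normalization (adjusted p = 0.0947). Cd68, a lysosomal protein abundant in macrophages, read 4.0 and 3.92 against 2.97 and 2.90 (0.43, adjusted p = 0.000576). Cd163, the haemoglobin scavenger receptor of resident macrophages, had overlapping arrays (0.761 and 0.566 against 0.699 and 0.884, adjusted p = 0.316). Cd4 and Cd8a, the T cell co-receptors, were under the limit on every array, at most at 0.192 and 0.405.

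Broadly expressed CD antigens gave 7 higher, 5 lower and 6 not passed among 18 tested of 21 read; this split became 5 higher and 8 lower with quantile and 3 higher and 9 lower with cyclic loess normalization. Cd93, a surface glycoprotein of endothelial and myeloid cells, read 3.44 and 3.26 against 9.44 and 10.3, or 2.94-fold lower (-1.56, adjusted p = 1.86e-07). A second Cd93 probe was under the limit on every array. Cd9, a tetraspanin of glia and many other cells, read 4.09 and 4.47 against 9.07 and 8.98, or 2.11-fold lower (-1.08, adjusted p = 1.43e-06). Cd164, a sialomucin, read 165 and 172 against 125 and 129 (0.40, adjusted p = 0.000728), a call lost under quantile (adjusted p = 0.0995) and cyclic loess normalization (adjusted p = 0.131). Cd81, a tetraspanin, read 142 and 157 against 144 and 149 (0.03, adjusted p = 0.726), with the negative arrays inside the range of the positive ones; the normalizations turned it to -0.23 and -0.25. Of the remaining CD-named genes, the splicing factor Cd2bp2 was higher, at 5.53 and 5.75 against 2.73 and 2.98 (0.98, adjusted p = 3.67e-06). Cd2ap, an adaptor of the actin cytoskeleton, was higher by less, at 1.33 and 1.13 against 0.963 and 0.818 (0.46, adjusted p = 0.0226), a call lost without positive replicate 1 (adjusted p = 0.121) or negative replicate 2 (adjusted p = 0.107).

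**Figure D3:**
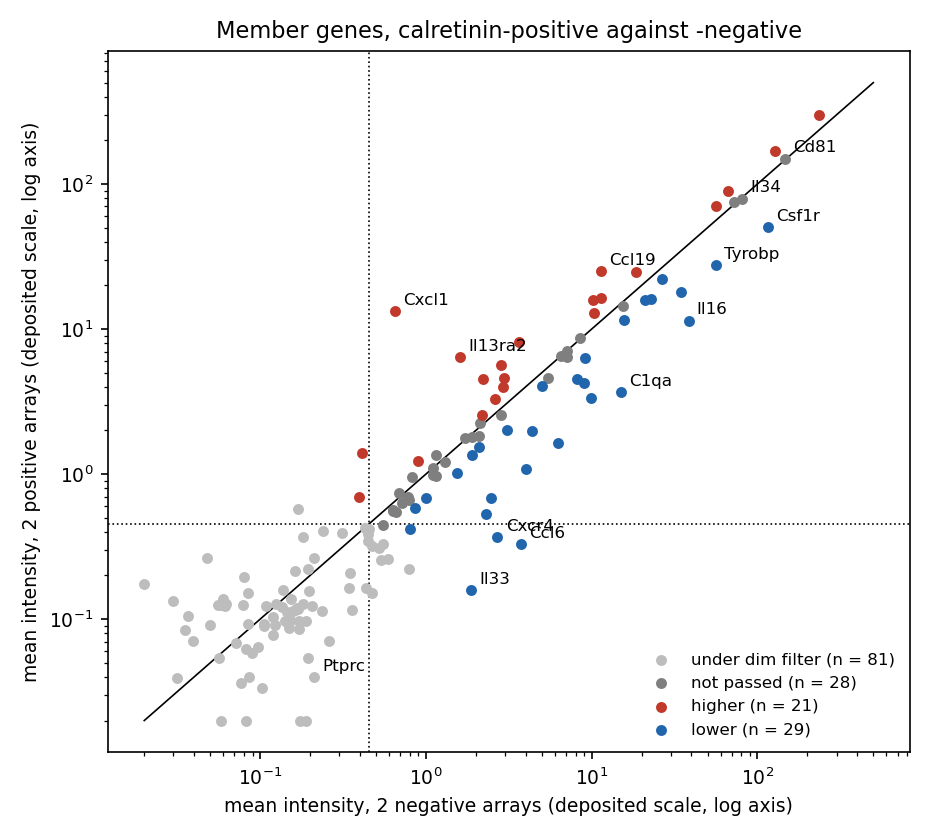
Mean intensity of the 159 immune genes read, positive arrays against negative arrays (log axes, deposited scale; solid line, equal levels; dotted lines, the dim limit of 0.456; means under 0.02 are drawn at 0.02). The 81 untested genes, Ptprc among them, fill the lower left corner, and of the tested genes Cxcl1 lies farthest above the line, at 13.3 against 0.649.

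Pathway genes outside the symbol families were called in both directions. Beside all counts of these lists stand the shares of all tested named genes, 45.3% higher and 21.4% lower. Of the complement genes apart from C1q, 10 of 16 read were tested, 6 were higher, 2 lower and 2 did not pass. Cfb, the protease of the alternative pathway, read 19.4 and 21.2 against 6.79 and 6.79 (1.58, adjusted p = 1.25e-07). C2, its counterpart in the classical pathway, read 28.4 and 25.8 against 10.4 and 8.97 (1.49, adjusted p = 5.91e-07). C3, the central component, was lower, at 0.642 and 0.878 against 1.79 and 1.54 (-1.14, adjusted p = 0.000258). C5ar1, a receptor on neutrophils and macrophages, read 1.20 and 1.24 in the negative arrays and was under the limit in the positive arrays (0.368 and 0.104, adjusted p = 0.00101). Complement genes were thus split, with C1q, C3 and C5ar1 lower and Cfb and C2 higher.

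Of the leukocyte adhesion and signalling genes, 17 of 21 read were tested, 2 were higher, 8 lower and 7 did not pass. Lcp2, a T cell and myeloid adaptor, read 4.48 and 4.49 in the negative arrays and was under the limit in the positive arrays, at 0.336 and 0.249 (adjusted p = 6.45e-08). Laptm5, a lysosomal protein of blood cells, read 8.77 and 8.05 against 26.2 and 24.4, or 3.01-fold lower (-1.59, adjusted p = 1.50e-07). Higher were Cyba, a subunit of the phagocyte oxidase present in many cells (1.75, adjusted p = 6.43e-06), and Ptpn6, a phosphatase mainly of blood cells (1.01, adjusted p = 1.40e-06).

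NF-kB, TNF and Toll signalling gave 7 higher, 4 lower and 9 not passed among 20 tested of 24 read. Icam1, an adhesion molecule, read 7.92 and 8.23 against 3.20 and 3.28 (1.32, adjusted p = 3.01e-07). Tnfrsf1a, the main TNF receptor, read 21.9 and 22.9 against 11.6 and 9.96 (1.06, adjusted p = 3.86e-06). Vcam1, the ligand of leukocyte integrins on vessels, was lower (-0.57, adjusted p = 0.000559), as was the kinase Map3k7 (-1.22, adjusted p = 1.49e-06). Map3k7 is a late probe whose readings differ, and by table rows it was lower by less (-0.27, adjusted p = 0.00524).

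Antigen processing genes gave 4 higher, 3 lower and 2 not passed among 9 tested of 12 read. Erap1, which trims peptides for class I, read 16.8 and 12.2 against 6.48 and 5.90 (1.21, adjusted p = 2.64e-05). Tapbp, which loads them, read 2.37 and 2.84 against 1.20 and 1.31 (1.05, adjusted p = 3.25e-05). Tap1, a peptide transporter subunit, was lower (-0.52, adjusted p = 0.00764), as was the immunoproteasome subunit Psmb10 (-0.24, adjusted p = 0.00922).

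Interferon response genes gave 5 higher, 5 lower and 9 not passed among 19 tested of 22 read. Usp18, a brake on interferon signalling, was higher (0.70, adjusted p = 1.77e-05), and so was Ifi27 (0.46, adjusted p = 0.000673). Mx2 (-1.08, adjusted p = 1.58e-05) and Ifitm1 (-0.70, adjusted p = 1.16e-05), both antiviral proteins, were lower. JAK, STAT and cytokine signalling had 2 higher, 2 lower and 9 not passed among 13 tested of 23 read. Jak3 (0.44, adjusted p = 0.000500) and Stat3 (0.25, adjusted p = 0.00998) were higher. Stat6, which acts below Il4r, was lower (-0.41, adjusted p = 0.000753), as was Cntf, a neurotrophic factor of Schwann cells, at 5.91 and 6.14 against 12.6 and 12.8 (-1.08, adjusted p = 7.96e-07).

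Markers of several cell types moved with the comparison. Unlike the pathway lists, these lists keep genes of the symbol families, so they partly repeat values given above. The lower macrophage and microglia markers include C1qa, C1qb, C1qc, Csf1r, Tyrobp and Laptm5, all described above. Among all tested named genes 45.3% were higher and 21.4% lower. The summed intensity of the 15 macrophage and microglia markers read was 111 and 115 in the positive arrays and 232 and 241 in the negative arrays; 10 were tested, 6 were lower and 2 (Cd14 and Cd68) higher, and Cx3cr1, P2ry12 and Trem2 were under the limit. Endothelial and mural markers fell from 88.9 and 92.3 in the negative arrays to 32.8 and 33.4 in the positive arrays, with 8 lower, 0 higher and 1 not passed of 9 tested; Vwf, the clotting factor of endothelium, read 32.0 and 34.7 there and 6.55 and 7.42 in the positive arrays. Oligodendrocyte markers summed to 340 and 334 against 202 and 199 (4 lower of 5 tested). Those of Schwann cells and satellite glia summed to 341 and 355 against 273 and 259 (6 lower and 1 higher of 9 tested). Erythroid and platelet markers summed to 18.7 and 20.0 against 9.44 and 9.10 (3 lower of 4 tested).

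Fibroblast, meningeal and mesothelial markers summed to 991 and 1007 in the positive arrays and to 698 and 782 in the negative arrays, with 8 higher and 2 lower of 11 tested. Neuron markers summed to 424 and 412 against 399 and 402, with 5 higher and 2 lower of 8 tested (2 higher under either normalization). Of the 15 T and natural killer cell markers read, 2 were tested and 1 was lower, Cd4, Cd5 and Cd8a being under the limit on all arrays; the list summed to 5.04 and 5.04 against 8.34 and 7.68. Granulocyte and mast cell markers had 0 calls by limma among 3 tested (10.6 and 11.3 against 11.2 and 10.5). B and plasma cell markers had 1 lower of 2 tested, at sums of 12.1 and 12.6 against 14.8 and 14.8. Dendritic cell markers had 1 higher and 2 lower of 5 tested, at sums of 33.8 and 34.8 against 51.7 and 47.6. The part of captured non-neuronal cells in the differences of the immune genes was not tested.

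**Figure D4:**
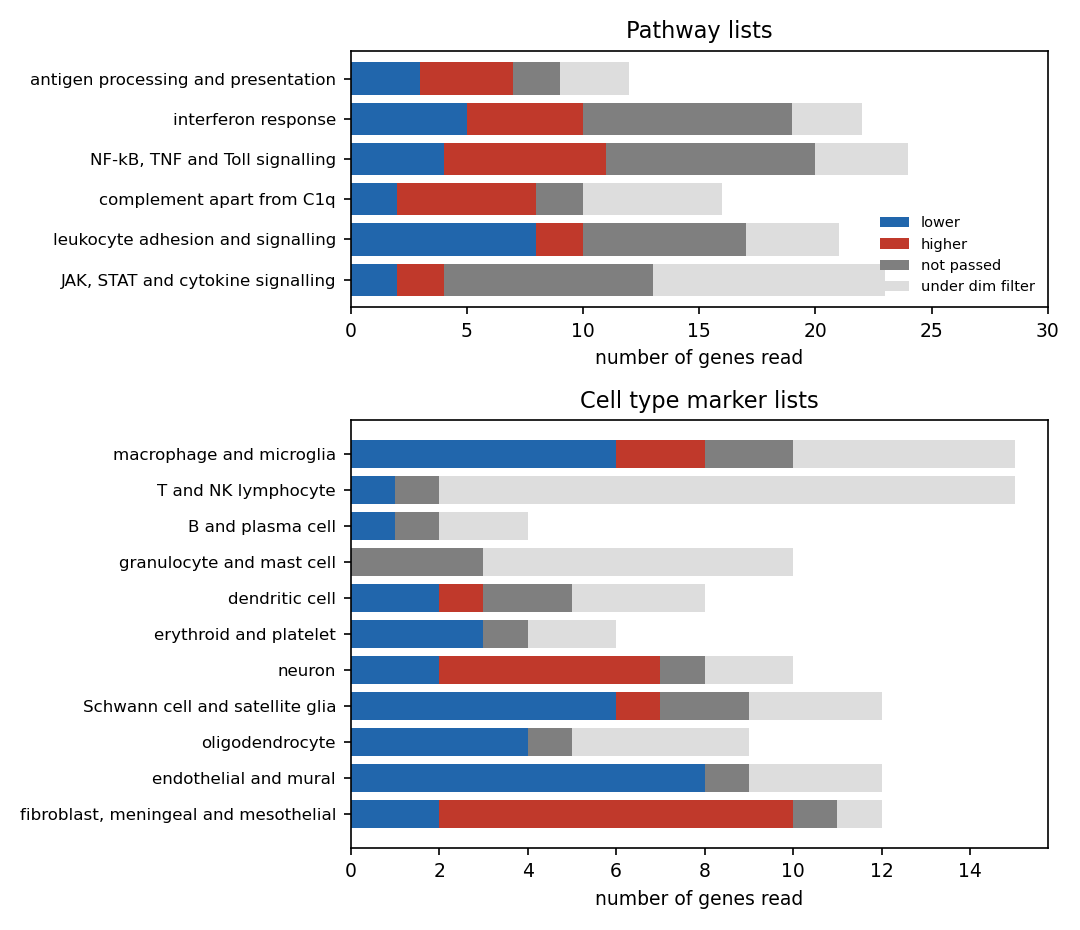
Number of genes read in each pathway list (upper panel) and cell type marker list (lower panel), divided into lower (blue), higher (red), not passed (dark grey) and untested because under the dim limit (light grey). The lower calls are most frequent in the endothelial list (8 of 12 genes read) and the higher calls in the fibroblast, meningeal and mesothelial list (8 of 12).

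For genes on the late part of the array the name is attached to the value 5 array positions later. For 10 of the 159 genes this is another value than the one 5 table rows later. Read by table rows, Cxcl16 was higher by less (0.29, adjusted p = 0.0160), Ccr10 did not pass (-0.17, adjusted p = 0.0556), and Tlr3 was higher (0.83, adjusted p = 1.82e-05). Il27ra, a chain of the Il27 receptor, was then lower (-2.19, adjusted p = 0.0325), and Cd2ap fell under the dim limit and was not tested. Ptprc then read 27.4 and 26.8 against 22.4 and 20.1 (0.35, adjusted p = 0.00216), and Fcer1g, the Fc receptor gamma chain, 26.6 and 23.9 against 17.3 and 15.3 (0.64, adjusted p = 0.000115), where the reading by position has both near 0. An early probe of Ptprc, which the reading does not touch, was also near 0, between -0.117 and 0.143. Without the genes whose readings differ, 18 were higher and 29 lower. By table rows the lists also changed by 1 gene each: lower interferon response genes numbered 4, lower endothelial and mural markers 7 and higher fibroblast, meningeal and mesothelial markers 7, while 1 granulocyte and mast cell marker and 2 dendritic cell markers were higher. The C1q chains, Tyrobp, Il16, Il10ra, Il4r, Il13ra2, Ccl6 and Ccl19 are late probes that both shifted readings give alike. The early probe of Ccl6 was under the limit on every array. Csf1r, Cxcl1, Cxcr4, Il15, Il33, Tlr8, Cd9 and Cd93 are early probes read in place.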

How the data were processed

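The authors deposited 1 value table of 35126 probes with linear intensity values for 4 arrays; how they were background-corrected and normalized, the sources used here do not say. Members and gene lists were chosen with earlier results of these data known. Missing entries (-9999) and values at or below 0 were replaced, before taking log2, by the 1st percentile of positive values on that array. Probes with a mean log2 value under the 40th percentile were left out, leaving 21070. Groups were compared with limma 3.58.1 in R 4.3.3 (lmFit, then eBayes with a trend; two-sided p, Benjamini-Hochberg over the 21070, called under 0.05). The brightest probe stands for a gene. Means and SDs are linear, SEs are in log2 units.

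Names came from the platform annotation. Early names were read at their own row, late names 5 array positions later, and names between were not used. The late reading departs from the rule first laid down (5 table rows) and was chosen after the data were seen. Of 54 control probes repeated on the array, 54 lay within 0.5 log2 of their early level by positions, 49 by table rows and 4 in place; among the 6 where the readings differ, the counts were 6 by positions and 1 by table rows. The readings differ for 574 late probes.

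Named genes were the members at least 2-fold different (up to 4 each way per role), the 2 brightest per role, fixed leukocyte markers, members with opposed probes, and the 2 top calls each way per pathway list; others were named after their values were seen. The fit was tested on simulated data. It called 29.8% of the added changes of 0.5 log2, 73.1% of those of 1 and 85.5% of those of 2. Few probes were changed there, unlike on these arrays, so the rates need not hold here. A gene that did not pass may still differ. Alternatives were other normalizations, filters, variance priors, thresholds, probe rules and name readings, a replicate block, and each array left out.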

Additional observations from a re-analysis of the deposited data

How the results depend on the processing

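With a replicate block 51 immune genes and 13711 probes were called, against 50 and 13530. Deviations of arrays with the same number were uncorrelated (r = 0.000316 over 21070 probes). Whether such arrays share an animal or pool cannot be told from this, because noise of the arrays could hide a shared origin. Leaving out each array in turn gave 12262 to 12764 probes called (7809 to 8059 higher, 4311 to 4776 lower), 45 to 48 immune genes (18 to 20 higher, 27 to 29 lower) and 20 to 22 at least 2-fold (6 to 8 higher, 14 to 15 lower). With the filter at the 60th percentile, 3153 probes, 18 immune genes and 9 at least 2-fold were lower; fewer probes were tested. With each probe on its own spread, 7082 probes (4492 higher, 2590 lower) and 32 immune genes (13 higher, 19 lower) were called; of the named genes Ccl6, Cxcl12, Il6st, Fcgrt, Tlr2, C1qbp, Cd2ap and Cd74 lost their call (adjusted p from 0.0631 to 0.176). The early part alone, with fewer genes, gave 31 (13 higher, 18 lower), and 8 at least 2-fold (2 higher, 6 lower). Late names in place gave 34 higher, 11 at least 2-fold and 6 of these lower. The direction turned for Cd81 (-0.23 quantile, -0.25 cyclic loess, -0.31 late names in place), Il6st (0.23 as a mean over probes), Ccl6 (0.44), Il16 (1.01) and C1qc (0.086) with late names in place, and Ccr10 (-0.17) and Tlr3 (0.83) by table rows. The table-row reading and the one without differing probes were added after the data were seen. For normalization and spread, the cause was not tested. Of 758 values of 40 named genes over 20 settings, 715 kept direction and side of the threshold, 28 lost the call, 6 gained one and 9 reversed. With 2 arrays per group and intensities near the limit, dim genes have the widest errors.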
